A study of Mus musculus with 6 samples.

Results

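The 8 genes described here are transcription regulators placed around *Sbno2*, a corepressor induced by STAT3. They are *Sbno2* and its paralog *Sbno1*, the C/EBP factors *Cebpa*, *Cebpb*, *Cebpd* and *Cebpg*, and the Krüppel-like factors *Klf4* and *Klf6*. They were picked by name out of 24421 genes in the deposited tables, and the set was chosen with the measured PBS and DT values of these same libraries in view. The difference between the groups is therefore given for each of the 8 genes as a description, with its error and with no p-value. Calls of these genes in the fit over all genes are counted once, for description, and support nothing.

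All samples were astrocytes from the hippocampus of C57BL/6 mice of the genotype Siglechdtr/dtr, in which the diphtheria toxin receptor is knocked into the *Siglech* locus, so that diphtheria toxin ablates microglia. Homozygous mice, controls included, have reduced Siglec-H. The 3 PBS libraries came from mice given PBS and the 3 DT libraries from mice given diphtheria toxin (DT) at 50 µg/kg, by the intraperitoneal route and 2 days before the tissue was taken. Each library was made from the hippocampi of 2 mice pooled, from which CD11b+ cells were first removed and ACSA-2+ cells then retained by magnetic sorting, and each of the 3 libraries of a group came from an independent experiment. The comparison asked how the astrocyte transcriptome differed once microglia had been ablated.

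Sbno2 is a helicase-like corepressor of the strawberry notch family, known from macrophages as a STAT3-dependent part of the response to IL-10, and its transcript is also induced in astrocytes by cytokines that signal through gp130. C/EBP proteins are basic leucine zipper factors that bind DNA as dimers. C/EBPβ and C/EBPδ are known for acute-phase and inflammatory transcription, C/EBPα for myeloid and adipocyte differentiation, and C/EBPγ for lacking a strong activation domain of its own and pairing with other family members. Klf4 and Klf6 are zinc finger factors that bind GC-rich DNA, and both are also used by vascular and myeloid cells.

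*Sbno2* lies on the minus strand of chromosome 10 of mm10, from 80056992 to 80105571, with 9 annotated transcripts of up to 33 exons. RefSeq gives 3 start sites for it on GRCm38.p6. The 250 bases before each start were searched on both strands for the palindromic STAT half-sites TTCNNNGAA, because *Sbno2* is known as a STAT3-induced gene. A match stood 26 bases before the start at 80102702 and another 24 bases before the start at 80101187. The 30 bases before each of these starts are shown here, 5′ to 3′ on the gene's strand, with the match in capitals.
Sbno2, chr10:80102703-80102732, minus strand: ccccTTCGCAGAAgcggaagtgcgcgccgc
Sbno2, chr10:80101188-80101217, minus strand: ctctgcTTCCCGGAAtgcctgtgagtccct
The start at 80075439, deeper in the gene, had no such match. Of the 10 start sites available for 7 of the 8 genes, these 2 were the ones with the motif, which occurs before 7.02% of the 32851 start sites in the table. *Cebpd* had no start site available, so it was not searched for this or any motif below. The whole 250-base window before the start at 80101187, which lies inside the gene but outside its annotated exons, is shown for context with the same letters in capitals.
Sbno2, chr10:80101188-80101437, minus strand: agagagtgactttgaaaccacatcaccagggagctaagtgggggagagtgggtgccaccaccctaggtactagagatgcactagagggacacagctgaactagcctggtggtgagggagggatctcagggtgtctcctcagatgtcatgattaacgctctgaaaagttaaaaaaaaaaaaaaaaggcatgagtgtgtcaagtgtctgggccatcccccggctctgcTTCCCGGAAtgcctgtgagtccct
A match is a run of letters and was not tested as a binding site.

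Between 459 and 2478 reads per library came from *Sbno2*. It stood at 21.1, 24.1 and 24.8 CPM (reads relative to library sizes the authors had scaled, written CPM) in PBS replicates 1 to 3, and 65.1, 80.5 and 57.4 CPM in DT replicates 1 to 3. The groups did not overlap, and the lowest DT value stood well clear of the highest PBS value. The mean was 23.4 ± 1.96 CPM in the PBS group and 67.7 ± 11.8 CPM in the DT group (SD, n = 3 each), a 2.90-fold difference. On the scale of log2(CPM + 0.1), on which all fold changes below are given, the difference was 1.52 (SE 0.13), at percentile 99.5 of the 15137 genes with a mean of at least 0.5 CPM. In a bulk library, fewer cells of a type and less RNA per cell cannot be told apart, here and for every gene below.

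*Sbno1*, the paralog of *Sbno2*, stood at nearly the same level in both groups. It lies on chromosome 5, minus strand, from 124368702 to 124426001, and gave 5009 to 8085 reads per library. Its level was 242, 244 and 230 CPM after PBS and 242, 249 and 235 CPM after DT, so that the groups overlapped and all 6 libraries stayed within a narrow band. The log2 fold change was 0.02 (SE 0.05), and it lay between -0.01 and 0.04 over 16 alternative settings. Per transcript length, *Sbno2* was the minor paralog in every library. Its TPM (a level corrected for transcript length and scaled to a fixed total) was 18.9%, 21.4% and 23.4% of that of *Sbno1* in the PBS libraries and 58.4%, 70.1% and 52.9% in the DT libraries.

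**Figure D1:**
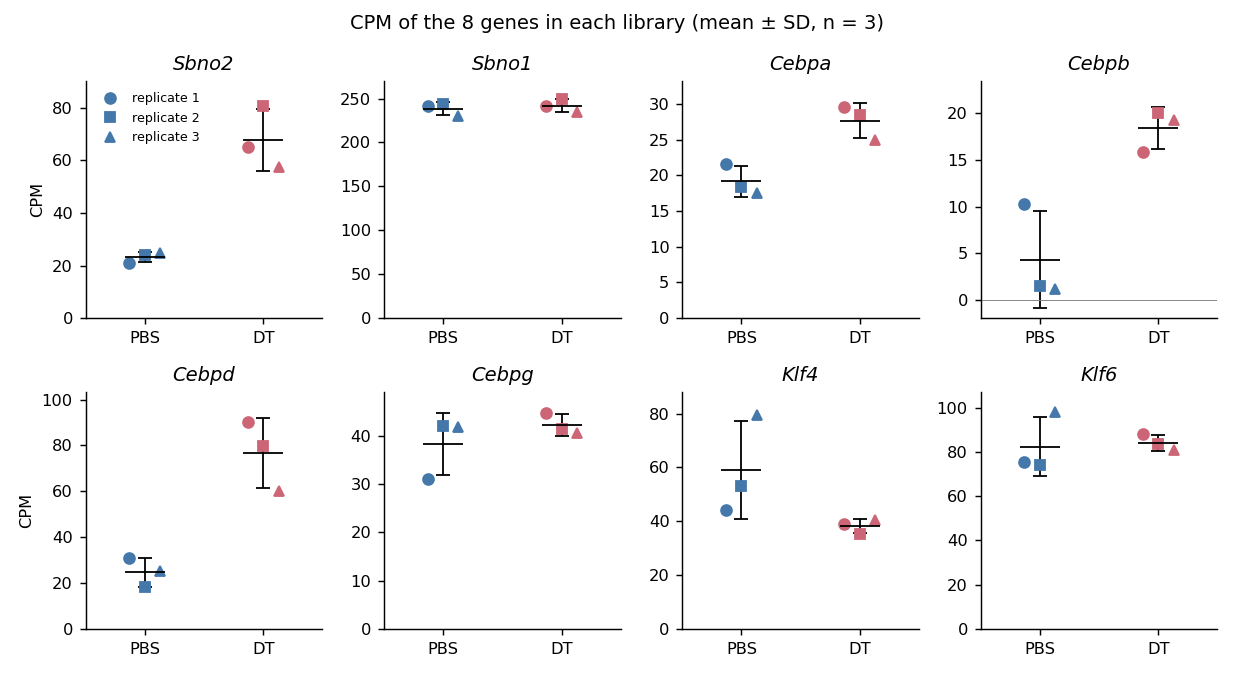
CPM (vertical axes, linear, each with its own range) of each of the 8 genes in the 3 PBS libraries (blue) and the 3 DT libraries (red), with marker shapes for the replicate number and black bars for the mean ± SD (n = 3). The groups are apart for *Sbno2*, *Cebpa*, *Cebpb* and *Cebpd*, which were higher after DT, and for *Klf4*, which was lower, while 1 PBS library of *Cebpb*, at 10.3 CPM, sits between the other PBS libraries and the DT libraries.

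Among the C/EBP factors, *Cebpd* and *Cebpb* had the larger differences. *Cebpd* (chromosome 16, plus strand, 15887286 to 15891031), known as a rapidly induced acute-phase regulator, was read 547 to 2456 times per library. It stood at 30.8, 18.2 and 25.1 CPM after PBS and at 90.3, 79.8 and 60.2 CPM after DT. The groups did not overlap, and the gap between the lowest DT and the highest PBS library exceeded the range of the PBS libraries. The means were 24.7 ± 6.28 and 76.8 ± 15.3 CPM (SD, n = 3 each), a 3.11-fold difference with a log2 fold change of 1.64 (SE 0.20).

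*Cebpb* (chromosome 2, plus strand, 167688915 to 167690418) is a gene of 1 exon that encodes activating and inhibitory forms of C/EBPβ from the same transcript. It had few reads in some libraries, 223, 49 and 26 after PBS and 361, 617 and 442 after DT. Its levels were 10.3, 1.48 and 1.19 CPM after PBS and 15.8, 20.0 and 19.3 CPM after DT. All DT libraries were above all PBS libraries, but PBS replicate 1 was 8.60 times PBS replicate 3, and the SD of log2(CPM + 0.1) among the PBS libraries, 1.66, was at percentile 99.6 of all genes tested, against a median of 0.14. The means were 4.31 ± 5.16 and 18.4 ± 2.29 CPM (SD, n = 3 each), a 4.26-fold difference. The log2 fold change of 2.73 was the highest of the 8 genes and had the highest error (SE 0.67), and without PBS replicate 1 it was 3.68.

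The 250 bases before the *Cebpb* start are shown because they were the richest in GC of the windows available for these genes (81.6% G or C, against a median of 52.4% over all start sites). The 5 matches to the GC box GGGCGG are in capitals, of which the first pair overlap.
Cebpb, chr2:167688665-167688914, plus strand: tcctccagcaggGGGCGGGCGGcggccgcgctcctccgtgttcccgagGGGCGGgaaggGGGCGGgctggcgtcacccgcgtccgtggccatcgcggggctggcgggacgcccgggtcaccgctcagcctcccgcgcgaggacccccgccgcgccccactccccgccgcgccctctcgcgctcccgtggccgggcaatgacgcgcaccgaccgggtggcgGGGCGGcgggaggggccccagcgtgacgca
A GC box on either strand occurs before 32.7% of all start sites and before 7 of the 10 of these genes. The C/EBP half-site pair TTGCNNAA occurs before 9.56% of all start sites and before 0 of these 10. The NF-κB-like GGNNNTTCC occurs before 15.7% of all start sites and before 1 of the 10, the *Sbno2* start at 80075439. The KLF-like GGGNGTGG occurs before 15.9% of all start sites and before 4 of the 10.

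*Cebpb* and *Cebpd* are each overlapped on the opposite strand by another gene, *Tmem189* and *Spidr*. The kit was stranded and strand was used in mapping, while the counting setting for strand is not given in the sources used here. *Tmem189* was at 57.5 to 62.4 CPM in all 6 libraries, with a log2 fold change of -0.01. *Spidr* was at 11.9 to 16.3 CPM after PBS and at 14.7 to 17.6 CPM after DT, with a log2 fold change of 0.25. Neither was past the threshold of adjusted p under 0.05 in limma.

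*Cebpa* (chromosome 7, plus strand, 35119293 to 35121928) had a smaller difference. It was read 382 to 874 times per library and stood at 21.6, 18.4 and 17.5 CPM after PBS and at 29.6, 28.4 and 24.9 CPM after DT. The groups did not overlap, although the gap between the nearest libraries was of the size of the spread within a group. The means were 19.2 ± 2.17 and 27.6 ± 2.41 CPM (SD, n = 3 each), a 1.44-fold difference with a log2 fold change of 0.53 (SE 0.11). It was the single gene of those with a RefSeq start whose window held the TATA-box letters TATAAA, which occur before 12.4% of all start sites, and they begin 30 bases before its start, as shown in capitals.
Cebpa, chr7:35119263-35119292, plus strand: TATAAAagcggtccccgcgcgggcctggcc

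*Cebpg* lies 62719 bases from *Cebpa* on the same chromosome, on the minus strand from 35046422 to 35056573. It stood at 31.0, 42.0 and 41.9 CPM after PBS and at 44.8, 41.4 and 40.5 CPM after DT. The groups overlapped, since PBS replicate 1 was the lowest of all 6 and the other 5 libraries lay between 40.5 and 44.8 CPM. The log2 fold change was 0.15 (SE 0.12), and 0.01 without PBS replicate 1.

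Per transcript length, the makeup of C/EBP transcripts differed between the groups. The TPM of the 4 genes summed to 101, 74.0 and 80.1 in the PBS libraries and to 205, 204 and 170 in the DT libraries, with no overlap. *Cebpd* was the most abundant of the 4 in every library except PBS replicate 2, in which *Cebpg* was, and its mean share was 37.2% after PBS and 51.5% after DT. The mean share of *Cebpg* was 29.1% and then 13.8%, and that of *Cebpa* was 25.1% and then 16.0%, although neither gene had a lower TPM mean after DT. *Cebpb* made up 19.2%, 3.71% and 2.61% of the sum in the PBS libraries and 14.6%, 19.4% and 22.1% in the DT libraries, so that PBS replicate 1 lay within the DT range in this share.

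**Figure D2:**
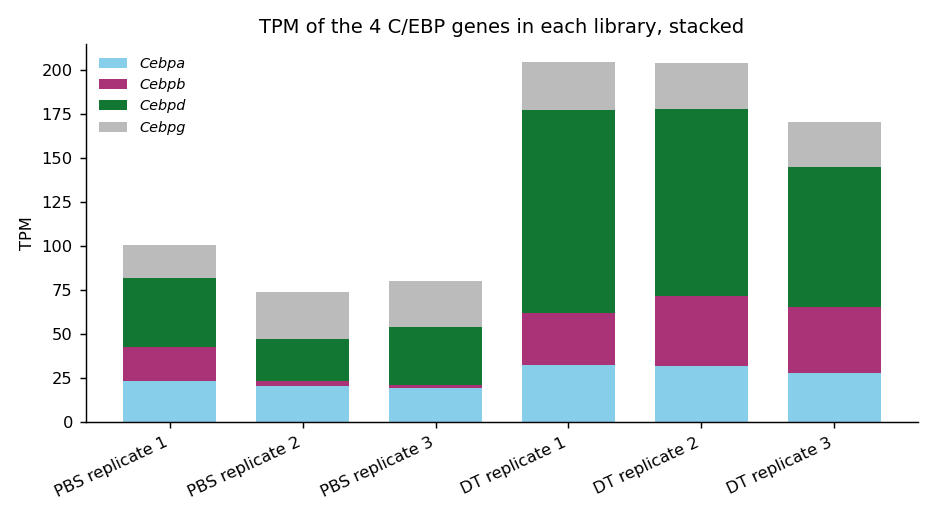
Stacked bars of the TPM (vertical axis, from 0) of *Cebpa*, *Cebpb*, *Cebpd* and *Cebpg* in each of the 6 libraries (horizontal axis). The summed TPM is 74.0 to 101 in the PBS libraries and 170 to 205 in the DT libraries, and most of the added height is *Cebpd* and *Cebpb*.

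Of the 2 Krüppel-like factors, *Klf4* was lower after DT and the groups of *Klf6* overlapped. *Klf4* (chromosome 4, minus strand, 55527143 to 55532466) stood at 44.3, 53.2 and 79.4 CPM after PBS and at 39.1, 35.4 and 40.5 CPM after DT. Every DT library was below every PBS library, yet the gap from the lowest PBS library to the highest DT library was small beside the spread of the PBS group. The means were 59.0 ± 18.3 and 38.3 ± 2.65 CPM (SD, n = 3 each), with a log2 fold change of -0.58 (SE 0.19) that was -0.34 without PBS replicate 3. *Klf6* (chromosome 13, plus strand, 5861482 to 5870394), a factor widely expressed and known to respond to injury, stood at 75.4, 74.2 and 97.9 CPM after PBS and at 88.0, 83.7 and 80.8 CPM after DT. Its groups overlapped, and the log2 fold change of 0.04 (SE 0.11) took either sign when single libraries were left out (-0.03 to 0.17). Per transcript length, *Klf4* was at 81.4%, 99.3% and 112% of *Klf6* in the PBS libraries and at 61.5%, 58.5% and 69.4% in the DT libraries, so that this ratio too did not overlap.

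PBS replicate 3 had the highest *Klf4* and *Klf6* of all 6 libraries, and also the highest summed level of 12 endothelial markers. That sum was 971, 1036 and 1518 CPM in PBS replicates 1 to 3 and 806, 824 and 976 CPM in DT replicates 1 to 3. All 12 markers had a negative log2 fold change, though 0 were called by limma and by edgeR, 6 had an unadjusted limma p under 0.05 and 2 (*Cldn5* and *Kdr*) were called lower by DESeq2. The part of endothelial RNA in the *Klf4* values was not tested.

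By mean TPM in the PBS libraries, the 8 genes ran from *Sbno1* to *Cebpb*. *Sbno1* (67.0 to 72.1 TPM), *Klf6* (51.4 to 68.1) and *Klf4* (41.8 to 76.5) were highest, and neighbours among these 3 overlapped. *Cebpd* (24.0 to 39.1 TPM), *Cebpg* (19.0 to 26.6) and *Cebpa* (19.4 to 23.5) followed, each overlapping the next. *Sbno2* (13.1 to 15.7 TPM) and *Cebpb* (2.09 to 19.4) had the lowest means and overlapped each other, and in PBS replicate 1 *Cebpb* (19.4 TPM) was slightly above *Cebpg* (19.0 TPM). In the DT libraries *Cebpd* (79.1 to 115 TPM) was the highest of the 8, above *Sbno1* (69.3 to 74.4) and *Klf6* (56.9 to 60.3), with no overlap between these neighbours. *Sbno2* (36.7 to 52.1 TPM) came next, with ranges that overlapped from *Sbno2* to *Klf4* (34.9 to 39.5), to *Cebpb* (29.9 to 39.7) and to *Cebpa* (28.1 to 32.4). *Cebpg* (25.6 to 27.5 TPM), above *Cebpa*, *Sbno2* and *Cebpb* by mean after PBS, was the lowest after DT.

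Of the 8 genes, 2 were called by the limma fit over all genes at an adjusted p under 0.05, *Sbno2* and *Cebpd*, both higher after DT. Over all 15137 genes tested, 0.713% were called in either direction and 0.555% were called higher. The CPM of the groups did not overlap in 5 of the 8 genes, 4 of which were higher after DT (*Sbno2*, *Cebpa*, *Cebpb* and *Cebpd*) and 1 lower (*Klf4*). Over all genes tested, 16.3% did not overlap and 8.75% did not overlap with DT higher. Since the genes were chosen on this contrast, nothing is read from these counts. The call of *Cebpd* was lost without DT replicate 2, without the variance trend and without the filter on low genes, while that of *Sbno2* was lost only without the filter, among 16 alternatives. *Cebpb* was called only without PBS replicate 1, and *Cebpa* and *Klf4* only with DESeq2.

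**Figure D3:**
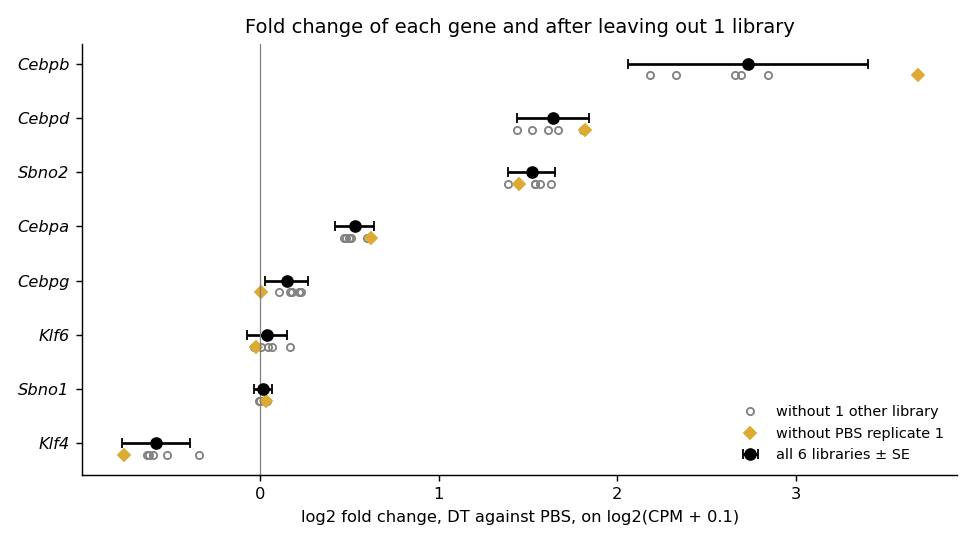
Log2 fold change of DT against PBS on log2(CPM + 0.1) (horizontal axis) for the 8 genes, ordered by value (vertical axis). Black points with bars are the values from all 6 libraries ± SE, yellow diamonds those without PBS replicate 1, and open circles those without each other library. *Cebpb* moves from 2.73 to 3.68 without PBS replicate 1, whereas *Sbno2* stays between 1.39 and 1.63.

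PBS replicate 1 stood apart from the other PBS libraries in *Cebpb* (10.3 against 1.48 and 1.19 CPM) and in *Cebpg* (31.0 against 42.0 and 41.9 CPM). It also had the highest *Cebpa* and *Cebpd* and the lowest *Sbno2* and *Klf4* of the 3. Such extremes do not single it out, since PBS replicate 3 had the highest *Sbno2*, *Klf4* and *Klf6* and the lowest *Sbno1*, *Cebpa* and *Cebpb*. Log2 levels over the 6 libraries were compared with those of *Cebpb* for 11783 genes with a mean of at least 5 CPM. The 5 most alike were *Smoc1*, *Plekhd1*, *Angptl4*, *Nip7* and *Nfix* (Pearson r of 0.981 to 0.992). Because they were picked for likeness over these same libraries, their intermediate level in PBS replicate 1 follows from the choice. *Nfix*, which encodes a nuclear factor I protein, was at 229, 137 and 140 CPM after PBS and at 289, 293 and 254 CPM after DT, and *Smoc1*, which encodes a secreted calcium-binding protein, at 58.1, 42.9 and 38.1 CPM and then at 62.8, 65.1 and 67.4 CPM.

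The genes most like *Sbno2* were *Msrb1*, *Grm5*, *Dbndd2*, *Snx2* and *Txnrd1* (r of 0.991 to 0.995), and those most like *Cebpd* were *Asap3*, *Twsg1*, *Slc1a4*, *Clip3* and *Lrp11* (r of 0.991 to 0.996). *Grm5*, the metabotropic glutamate receptor 5, was at 32.0, 37.7 and 38.6 CPM after PBS and at 64.5, 71.0 and 58.6 CPM after DT, and so had the same order of libraries as *Sbno2* in both groups. *Slc1a4*, a neutral amino acid transporter, was at 351, 306 and 325 CPM after PBS and at 474, 432 and 421 CPM after DT, the same order as *Cebpd*. These correlations rest on 6 libraries in 2 groups and are descriptions, and any gene that differs between the groups correlates with the others that do. Between the 8 genes themselves, *Cebpa* and *Cebpd* were the most alike (r = 0.97), *Sbno2* and *Cebpd* had r = 0.93, and *Klf4* ran against *Cebpb* (r = -0.91).

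Of the genes that act around these regulators, 107 in 7 lists were looked up and 80 had a mean of at least 0.5 CPM. After DT, 7 of the 80 rose and 0 fell past the threshold in limma and in edgeR, while DESeq2 called 11 higher and 3 lower. Over all genes tested, 0.713% were called by limma and 0.555% called higher. At an unadjusted limma p under 0.05 there were 17 of the 80 higher and 10 lower, beside 1576 of the 15137 genes in either direction (10.4%), and the median log2 fold change of the 80 was 0.05, beside -0.01 over all genes tested. The lists were written with earlier results of these data known. Of 19 genes of the gp130 and STAT3 pathway, which induces *Sbno2*, *Cebpb* and *Cebpd*, 16 were tested and 2 rose past the threshold. The list median was 0.08, and at an unadjusted limma p under 0.05 there were 5 higher and 1 lower. DESeq2 also called *Socs3* higher (limma log2 fold change 0.82, limma adjusted p = 0.0512) and *Cntfr* lower (-0.58, limma adjusted p = 0.277). *Osmr*, the oncostatin M receptor, rose from 57.9 ± 6.75 to 177 ± 15.9 CPM (SD, n = 3 each), a log2 fold change of 1.62 (SE 0.10, limma adjusted p = 2.49e-04). *Stat3* itself rose from 137 ± 16.6 to 271 ± 30.2 CPM (SD, n = 3 each), a log2 fold change of 0.98 (SE 0.11, limma adjusted p = 0.00538), and its call was lost without the filter and without the variance trend. *Osmr* lost its call only without the filter.

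Of 33 acute-phase and other genes known as targets of C/EBP factors, 17 were tested and 5 rose past the threshold, with a median of 0.52 that was 0.19 without the filter, 0.33 at a pseudocount of 1 and 0.34 at a mean of at least 2 CPM. *Serpina3n*, a serine protease inhibitor, had a log2 fold change of 3.45, *A2m*, a broad protease inhibitor, of 2.18, and *C3*, the central complement component, of 1.34 (limma adjusted p = 7.20e-06, 2.40e-04 and 0.00214). The chemokine genes *Ccl2* and *Cxcl1* had log2 fold changes of 2.74 and 2.09 (limma adjusted p = 0.0314 and 0.0223). Their levels were low, 0.488 ± 0.281 and 0.616 ± 0.17 CPM after PBS and 3.52 ± 0.716 and 2.91 ± 0.427 CPM after DT (SD, n = 3 each). Both lost their call without PBS replicate 2 and without each of the 3 DT libraries, and also without the filter, *Cxcl1* also without PBS replicate 3, and *Ccl2* also with TPM and without the variance trend. *A2m* and *C3* lost theirs only without the filter, and *Serpina3n* kept its call in all 16 alternatives. The other 16 listed genes, liver acute-phase genes such as *Crp* and *Hamp* among them, were too low to be tested.

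The other 5 lists held 0 genes past the threshold in limma and in edgeR. At an unadjusted limma p under 0.05 they held 3 genes of the IL-10 and corepressor list, 1 of the C/EBP list, 3 of the KLF list, 5 of the Notch list and 0 of the osteoclast list, and DESeq2 called *Bcl3* higher and *Il10ra* and *Hes1* lower. *Il10* itself, the cytokine through which Sbno2 was first described in macrophages, had 0 reads in every library, which allows up to 0.0905 to 0.138 CPM at 3 reads per library. Its receptor gene *Il10ra*, named here after its values were seen, was at 2.90, 3.47 and 3.77 CPM after PBS and at 1.53, 1.10 and 1.57 CPM after DT (log2 fold change -1.22, limma adjusted p = 0.0875). All 18 microglia markers looked up also had a negative log2 fold change (median -1.12), and the part of microglial RNA in the *Il10ra* values was not tested. Of 13 genes of the IL-10 pathway and corepressors 12 were tested (median 0.00), and the most abundant were the corepressor genes *Ncor1* (440 ± 4.03 and then 416 ± 18.1 CPM, SD, n = 3 each) and *Tle4* (199 ± 35.0 and then 181 ± 7.92 CPM, SD, n = 3 each). Of 7 further C/EBP family and partner genes 5 were tested (median 0.08), led by *Trib2* (log2 fold change -0.14), a pseudokinase that promotes C/EBPα turnover, and *Atf4* (0.16), a dimer partner of C/EBPγ. Of 15 other KLF genes 12 were tested (median -0.08), led by *Klf9* (-0.14), a glucocorticoid-responsive member, and *Klf12* (-0.22), a repressor. The 15 Notch pathway genes had a median of -0.13, led by the receptor genes *Notch2* (-0.20) and *Notch1* (-0.01), and 3 of 6 osteoclast genes linked to Sbno2 were tested (median -0.28), led by *Mitf* (-0.28) and *Tal1* (-0.34).

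**Figure D4:**
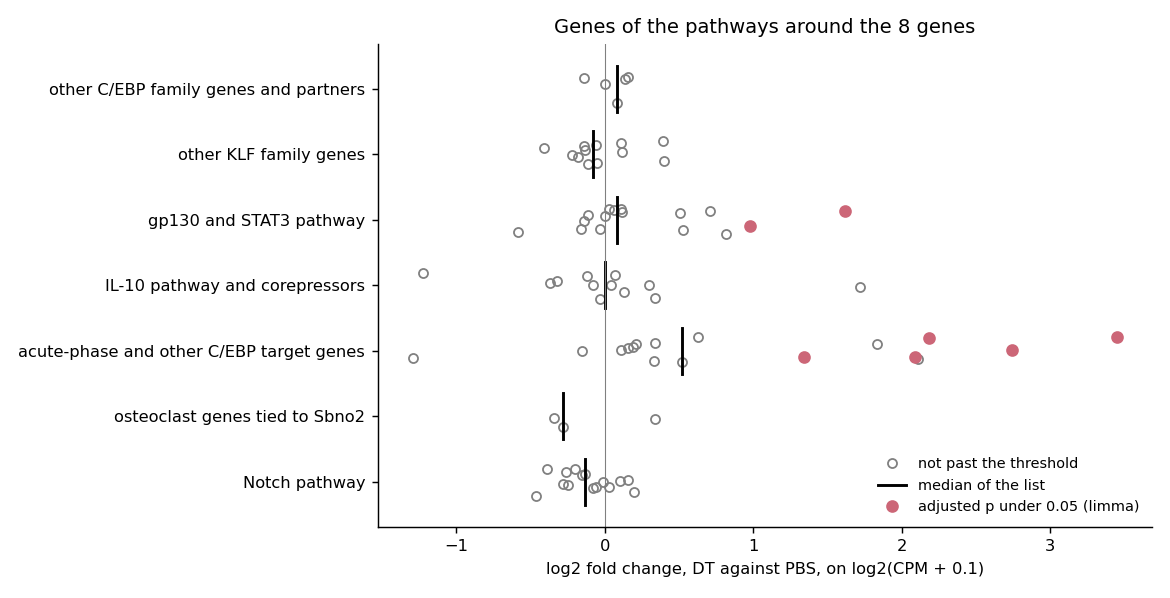
Log2 fold change of DT against PBS on log2(CPM + 0.1) (horizontal axis) of each tested gene in the 7 lists around the 8 regulators (vertical axis, points spread within a row for legibility). Filled points passed an adjusted p of 0.05 in limma, open points did not, and black lines are list medians. The 7 filled points are all above 0 and lie in the gp130 and STAT3 list (2) and the acute-phase and C/EBP target list (5).

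The recovered reads per library were 21704891 to 32933975. Of the marker lists, the 14 astrocyte markers had by far the highest sum, 65802 to 70881 CPM after PBS and 68392 to 76249 CPM after DT. *Slc1a2* alone was at 36929 ± 1129 and then 38292 ± 2923 CPM (SD, n = 3 each). Of the 14, limma called only *Gfap*, at 1017 ± 114 and then 3859 ± 348 CPM (SD, n = 3 each). The purity of the libraries was not tested. Myeloid cells also use *Sbno2*, *Cebpa*, *Cebpb* and *Klf4*, and their markers moved in different directions. The 18 microglia markers summed to 279 to 322 CPM after PBS and 163 to 188 CPM after DT. Of these, 8 were called lower and none higher, and *Siglech* was at 0 in every DT library. Their median log2 fold change was -1.12, but the most abundant, *Sall1*, was nearly unchanged (79.2 ± 8.07 and then 77.1 ± 5.36 CPM, SD, n = 3 each). The 11 border-associated macrophage markers summed to 49.1 to 70.1 CPM and then 108 to 126 CPM. All 9 of them that were tested had a positive log2 fold change (median 1.38). Of these 9, 7 had an unadjusted limma p under 0.05 and 3 were called higher. The neutrophil and monocyte markers summed to 2.62 to 5.05 CPM and then 1.53 to 1.96 CPM, with *S100a8*, *S100a9*, *Mmp8*, *Retnlg*, *Ngp* and *Plac8* at 0 throughout. In PBS replicate 1, where *Cebpb* was highest among the PBS libraries, the microglia sum was the lowest of the 3 and the border-associated macrophage sum, 54.8 CPM, lay between the others. The sum of the 10 ependymal and choroid plexus markers varied most between libraries, at 265 to 1084 CPM after PBS and 947 to 1739 CPM after DT. Most of this variation was *Ttr*, at 152, 807 and 33.4 CPM after PBS and at 1416, 917 and 489 CPM after DT. All 10 markers had a positive log2 fold change, 6 at an unadjusted limma p under 0.05. Limma and edgeR called 0, and DESeq2 called 1 higher (*Foxj1*, 80.4 ± 11.0 and then 120 ± 35.9 CPM, SD, n = 3 each). The 9 oligodendrocyte lineage markers summed to 655 to 787 CPM after PBS and 554 to 601 CPM after DT, with no overlap. Of these, 7 had a negative log2 fold change, 3 at an unadjusted limma p under 0.05, and while limma and edgeR called 0, DESeq2 called 1 lower (*Pdgfra*). The sums of the 11 neuron markers (1030 to 1094 and then 900 to 1150 CPM) and of the 11 mural cell and fibroblast markers (775 to 1161 and then 936 to 1230 CPM) overlapped between the groups. The part of myeloid, ependymal or oligodendrocyte RNA in the values of the 8 genes was not tested.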

How the data were processed

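RNA-seq was done on 3 PBS and 3 DT pools of hippocampal astrocytes. According to the study's methods, the authors trimmed reads with Trim Galore 0.5.0, mapped them to mm10 with HISAT2 2.1.0, removed ribosomal reads with bedtools 2.25.0, quantified genes with StringTie 1.3.5 and compared groups with edgeR 3.24.3. The authors deposited CPM and TPM per gene and library. The deposited CPM, planned for as plain CPM, is a signal scaled by TMM factors, and whole reads were recovered for 100% of values. The deposited p-values, q-values and fold changes of the authors' comparison were not used, and 0 columns were left unmapped.

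From the CPM, log2(CPM + 0.1) of genes with a mean of at least 0.5 CPM was compared with limma 3.58.1 in R 4.3.3 (variance trend, two-sided, Benjamini-Hochberg adjustment over all genes). The added 0.1 lowers the fold changes of low genes, while a difference of mean logs can also exceed the ratio of the means. For *Cebpb* the log2 fold change was 2.73 on this scale, 2.13 with edgeR and 2.10 with DESeq2. The limma fit was tested on simulated counts with the same dispersion of 0.02 for every gene. It recovered 92.9% of 2-fold and 100% of 4-fold changes, and 3.06% of its calls were false. A spread like that of *Cebpb* among the PBS pools was not simulated, so nothing follows for such genes. The pools are the replicates, and p-values measure the spread between pools. The genes and lists were chosen with earlier results of these data known. Named are the 8 genes, listed genes past the threshold or else the 2 highest per list, and the 5 genes most like *Sbno2*, *Cebpb* and *Cebpd*. Other genes named, such as *Tmem189*, *Spidr*, *Il10* and *Il10ra*, were added, and the motif search chosen, after values were seen. Start-site sequences are from RefSeq on GRCm38.p6 (7 of 8 genes matched, all but *Cebpd*) and gene coordinates from GENCODE M21 on mm10. Alternatives changed the pseudocount, the filter, the scaling (TPM or quantile normalization), the variance trend or the tool (edgeR 4.0.16 or DESeq2 1.42.0 on recovered reads), left out single libraries, or added a replicate block.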

Additional observations from a re-analysis of the deposited data

How the results depend on the processing

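Over 16 alternatives the log2 fold change of *Sbno2* lay between 1.39 and 1.63, of *Cebpd* between 1.44 and 1.82, of *Cebpb* between 2.1 and 3.68, of *Cebpa* between 0.47 and 0.62, of *Cebpg* between 0.01 and 0.23 and of *Klf4* between -0.76 and -0.34. Without a filter on low genes, 5 genes were called higher and 1 lower, with 0 of the 8 genes and 1 listed pathway gene among them. Without a variance trend the counts were 35 and 11, with 1 of the 8 genes (*Sbno2*). DESeq2 on the recovered reads called 227 and 98 genes, with 4 of the 8 (*Sbno2*, *Cebpa*, *Cebpd* and *Klf4*) and 14 listed pathway genes. The causes were not tested. Leaving out 1 library at a time gave 39 to 72 genes called higher, 9 to 20 called lower, and 1 to 3 of the 8 genes. With the replicate block, 79 genes were called higher and 30 lower, with the same 2 of the 8 genes. Deviations of same-numbered libraries correlated at 0.115, 0.011 and 0.118. Libraries of different numbers were not compared, so these values cannot decide whether the numbers pair the samples. The main fit left the samples unpaired. *Cebpb* had the fewest reads of the 8 genes, 26 in PBS replicate 3. PBS replicate 1 gave 223 at a similar depth (22288057 against 21704891 recovered reads in all).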
